A study of Mus musculus with 16 samples.

Results

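The genes described here encode the factors that start and drive protein synthesis, the translation initiation factors (eIFs) and elongation factors (eEFs) with the poly(A)-binding proteins Pabpc1 and Pabpc4, their kinases, their inhibitors and the methyltransferases that modify them. Members were chosen by gene symbol (Eif1 to Eif6, Eef1, Eef2, Pabpc1 and Pabpc4, leaving out Eif5a and Eif5a2), each represented by its transcript with most footprints. Of 68 matching symbols, 66 had a mean of at least 10 RNA-seq counts and are described here, among 22579 genes in all and 12242 at that level. The 2 left out, Eef1a2 and Eif4e1b, had 0 RNA-seq counts, and the lowest members kept were Eif3j2 with a mean of 17.1 counts and Eef1akmt3 with 21.0.

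The libraries came from hair follicle stem cell (HFSC) organoids, called 3D-3C cultures, grown for 2 weeks from epidermal cells of 2 C57BL/6J donor mice taken in the resting phase of the hair cycle, whose individual ages the labels do not give. Organoids were left untreated or were given N1-AcSpd (N1-acetylspermidine, an acetylated polyamine) for the last 72 h, and cells were then sorted into α6+CD34- progenitors and α6+CD34+ HFSCs, where α6 is an integrin of basal epidermal cells and CD34 a surface marker of follicle stem cells. Each of these 4 groups gave, from each donor, a library for RNA-seq and another for Ribo-seq, 16 libraries in all with n = 2 per group and assay. Replicates 1 and 2 were taken as the 2 donors, and all 4 groups share a medium with EGF, VEGF, FGF2 and a ROCK inhibitor.

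Initiation begins when eIF2, bound to GTP and the initiator tRNA, joins the small ribosomal subunit together with eIF1, eIF1A, eIF3 and eIF5, while eIF4F (the cap-binding eIF4E, the scaffold eIF4G and the helicase eIF4A) brings in the mRNA. eIF2B recharges eIF2 with GTP, stress-activated kinases block that step by phosphorylating the eIF2 alpha subunit, and the 4E-BP proteins hold eIF4E back until mTOR signalling releases them. In elongation, eEF1A delivers each aminoacyl-tRNA and eEF2 moves the ribosome on, and stem cells of several tissues, the hair follicle among them, are known for low protein synthesis.

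RNA-seq libraries held 21601141 to 31505435 counts over the transcripts kept, and Ribo-seq libraries only 34467 to 267921, so a count of 0 in a Ribo-seq library allows a share of 0.00112% to 0.00870% of its footprints (3 counts, counting error only). Cd34 RNA was 4.53 higher in HFSCs on the log2 scale, and all 10 HFSC identity markers had higher estimates in HFSCs with 6 past an adjusted p of 0.05. Markers of other cell types were low but not all absent. Cd207 and Cdh5 were 0 in 8 of 8 libraries, whereas Col1a1, Col1a2, Pdgfra, Cd74, Pmel, Mlana and Pecam1 had counts in all 8. Col1a2 reached 6.08 CPM and Cd74 3.14 CPM, and the summed fibroblast markers reached 13.4 CPM at most. Among late differentiation markers (Ivl, Lor, Krt1, Krt10 and Flg), 5 of 5 had lower estimates in HFSCs and 5 of 5 higher estimates with N1-AcSpd. Their summed level lay between 50.1 and 62.9 CPM in untreated progenitors against 137 to 214 CPM in treated ones, and between 27.6 and 27.7 CPM in untreated HFSCs against 49.2 to 69.8 CPM in treated ones. With N1-AcSpd the summed HFSC identity markers were lower, without overlap, in progenitors (516 to 614 CPM untreated, 379.9 to 442 treated) and in HFSCs (1239 to 1567 untreated, 777 to 999 treated). Krt15 (up to 764 CPM) and Sox9 (up to 284.5 CPM) had the highest levels in this sum. One by one, 7 of 10 identity markers had lower estimates in treated progenitors and 3 higher, and in treated HFSCs 9 were lower and 1 higher. Over both cell types 6 of 6 lineage markers and both sort markers (Cd34 and Itga6) had higher estimates. The part of these markers in the differences below was not tested. In RNA-seq, the difference between donors ran the same way in 3 groups (correlations of 0.352 to 0.591 over genes) but the opposite way in treated HFSCs (correlations of -0.572 to -0.396 with the other groups), so the results called below are also given without its libraries. In bulk libraries such as these, fewer cells of a type and less RNA per cell cannot be told apart.

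The 66 genes together took 3.31% to 3.67% of RNA-seq counts and 1.31% to 1.90% of footprints per library, 13100 footprints over all 8. Per kilobase of transcript, Eef1a1 had by far the highest RNA level of the set at 6799 CPM per kb (CPM are TMM-scaled counts per 1e6), followed by Eef2 at 1589.8, Pabpc1 at 891, the eEF1 subunit gene Eef1g at 624 and the helicase gene Eif4a1 at 615 CPM per kb. At the other end stood Eif3j2, Eef1akmt3 and the kinase gene Eif2ak2, at 0.283, 0.306 and 3.27 CPM per kb. Genes within a complex did not share a level: among the eIF3 subunits Eif3k reached 319.8 and Eif3a 82.2 CPM per kb, and the eIF2B subunits ran from 18.1 (Eif2b3) to 55.8 CPM per kb (Eif2b5). The start-site factors ran from 14.3 (Eif5b) to 425 (Eif1), the eIF2 genes from 24.6 (Eif2s3y) to 118 (Eif2s2), the kinases up to 9.79 (Eif2ak1) and the methyltransferases up to 29.5 CPM per kb (Eef1akmt1). In eIF4F and its partners the lowest was Eif4e3, at 6.65 CPM per kb. The plot of all members' levels shows that the 8 libraries of most genes lay close together compared with the distance between genes.

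**Figure D1:**
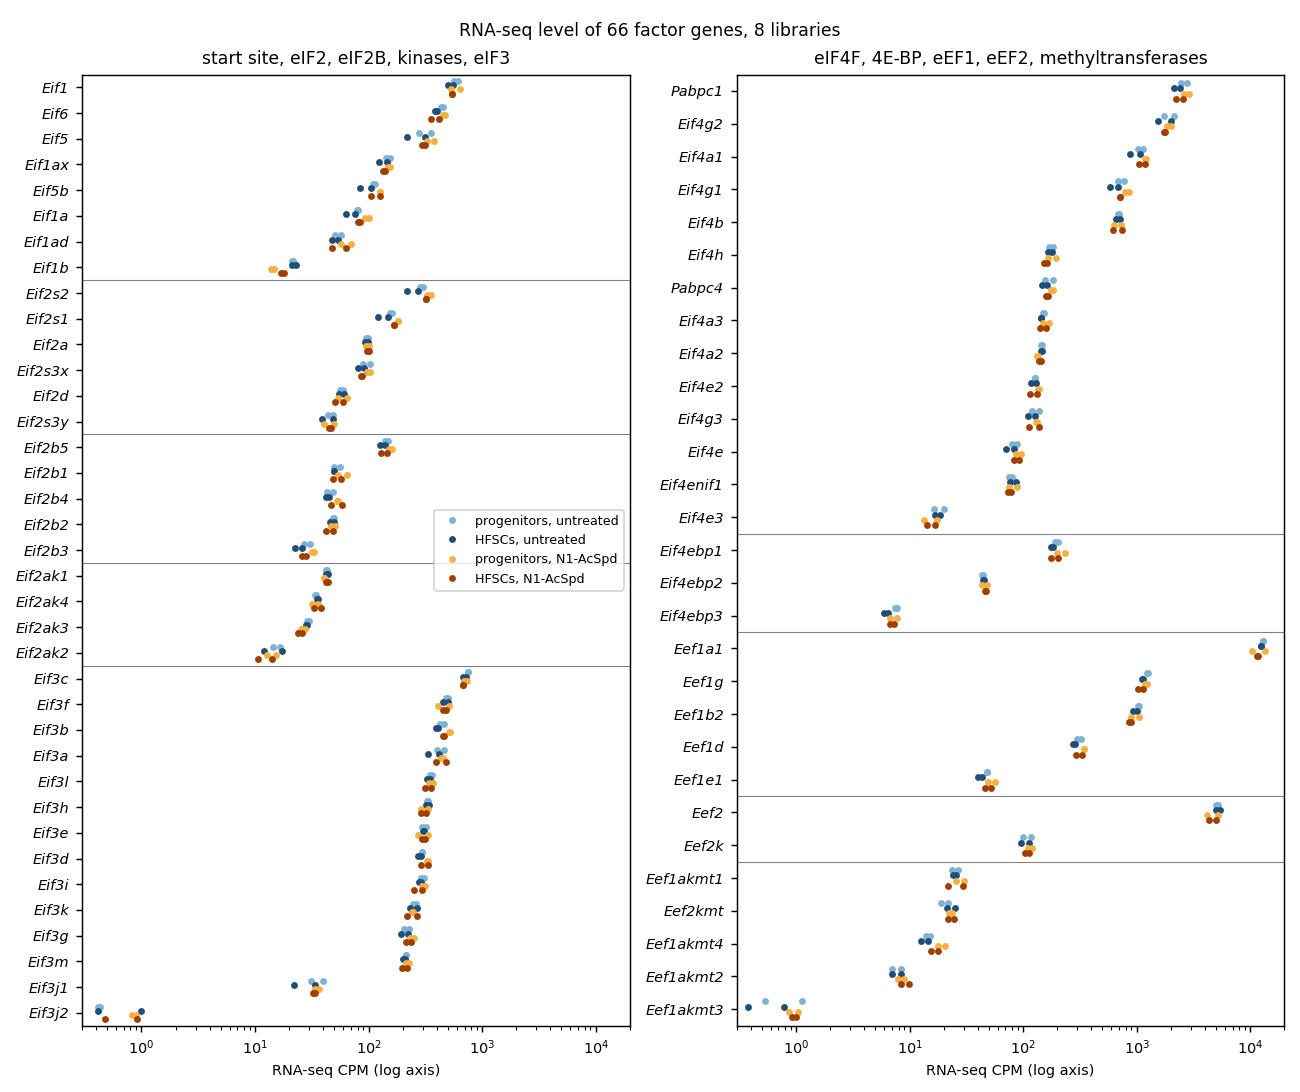
RNA-seq level of each of the 66 factor genes in 8 libraries, in CPM on a log axis, grouped by complex (horizontal lines) and ordered by mean level within it; each point is a library, coloured by cell type and treatment. The levels span from at most 0.996 CPM (Eif3j2) to at least 10415 CPM (Eef1a1), and the libraries of most genes lie close together.

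Comparing HFSCs with progenitors, no factor gene passed an adjusted p of 0.05 in RNA-seq (quasi-likelihood test of edgeR, adjusted by Benjamini-Hochberg over 14205 genes), but most estimates lay slightly below 0. Over both treatments 0 of 66 members were called, against 3.91% of all genes, and DESeq2 also called 0. Lower in HFSCs were the estimates of 55 of 66 members, where 51.1% of all genes were lower, and the median log2 difference was -0.09 for members and -0.01 for all genes. At an unadjusted p of 0.05, which 18.1% of all genes passed, 6 members were lower and 0 higher, and the share lower was close to the 8.88% of all genes that were lower at this threshold. Within each pair of libraries from the same donor and treatment, 26 members were lower in HFSCs in 4 of 4 pairs (16.4% of all genes were) and 1 was higher in 4 of 4 (14.8% of all genes), the kinase gene Eif2ak4. These pairs take the donor numbers as labelled, which the opposite donor difference in treated HFSCs leaves in doubt. Within untreated cells 57 of 66 members had lower estimates, and 0 passed (0 unadjusted), where 0.148% of all genes were called (9.58% unadjusted). In N1-AcSpd-treated cells it was 52 of 66, with 0 called (2 unadjusted) against 0.746% of all genes (11.2% unadjusted).

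Comparing N1-AcSpd with untreated cells, 1 member was called over both cell types, Eif1b, against 1.64% of all genes. Estimates were higher with the compound for 43 of 66 members, where 47.1% of all genes were higher, and the median log2 difference was 0.05 for members and -0.01 for all genes. At an unadjusted p of 0.05, which 15.6% of all genes passed, 7 members were higher, where 7.63% of all genes were, and Eif1b alone was lower. By donor and cell type, 14 members were higher in 4 of 4 pairs (13% of all genes) and 6 lower in 4 of 4 (14.4%). Within progenitors 0 members were called (0.239% of all genes) and 3 passed unadjusted (8.88% of all genes). Within HFSCs 0 were called (0% of all genes) and 3 passed unadjusted (7.74%). The test of whether the compound's effect differed between cell types called 0 members (0 unadjusted) and 0% of all genes (0.831% unadjusted). The plot of RNA-seq differences shows the estimates by complex.

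**Figure D2:**
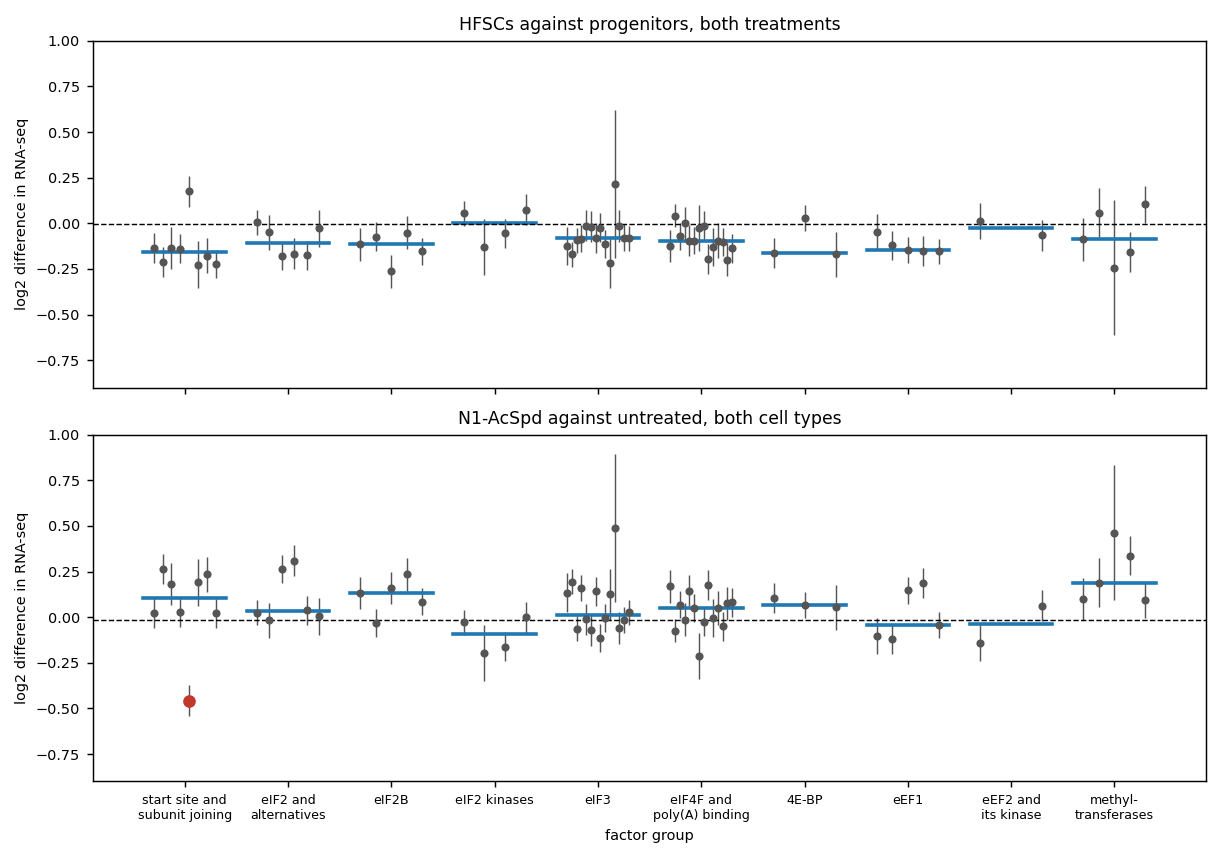
Log2 difference in RNA-seq of each factor gene by factor group, for HFSCs against progenitors (top) and N1-AcSpd against untreated cells (bottom); points are estimates, bars 1 standard error, blue lines the group medians and the dashed line the median of all genes. Group medians lie at or below 0 in the upper panel, and Eif1b at -0.46 (red) is the only gene past the adjusted threshold.

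The start-site and subunit-joining group was Eif1, Eif1a, Eif1ax, Eif1b, Eif5 and Eif5b, with Eif1ad and Eif6 (which opposes joining) placed beside them. In HFSCs 7 of 8 had lower estimates (median -0.16), and with N1-AcSpd 7 of 8 had higher ones (median 0.10). Eif1b, a close relative of the scanning factor gene Eif1, was the exception both times. Its RNA lay at 21.1 and 21.7 CPM in untreated progenitors, 23.1 and 21.2 in untreated HFSCs, 14.7 and 13.9 in treated progenitors and 17.1 and 18.01 CPM in treated HFSCs. All 4 treated libraries lay below all 4 untreated ones. Over both cell types Eif1b fell by 0.46 on the log2 scale with N1-AcSpd (SE 0.087, adjusted p = 0.044), a change of -27.1%. The call was lost with the donor as a block (adjusted p = 0.0704), with counts summed over all transcripts of the gene (0.0539) and without any of the 8 libraries (0.0835 to 0.178; 0.106 and 0.129 without treated HFSC replicates 1 and 2), while DESeq2 gave an adjusted p of 0.0135. Within progenitors the difference was -0.58 (SE 0.12, adjusted p = 0.159) and within HFSCs -0.33 (SE 0.12, adjusted p = 0.555), and the test of the difference between these gave 0.25 (SE 0.17, unadjusted p = 0.193).

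Eif1b and Eif1 lie on different chromosomes and share most of their coding bases, so their sequences are shown to let a reader see how far a short read can tell them apart. Over 339 coding bases 64 differed (81.1% identical), and in the first 120 coding bases shown here, read from the GRCm38 genome, the 19 that differ are in capitals. Eif1 lies at chr11:100319885-100322096 and Eif1b at chr9:120492491-120495330, both on the plus strand.
Eif1: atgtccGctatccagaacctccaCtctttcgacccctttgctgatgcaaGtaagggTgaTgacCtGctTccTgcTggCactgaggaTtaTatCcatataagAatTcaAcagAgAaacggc
Eif1b: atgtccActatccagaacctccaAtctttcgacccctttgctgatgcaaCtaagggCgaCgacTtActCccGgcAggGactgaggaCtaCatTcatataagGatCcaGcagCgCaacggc
Unique sequence covered most of Eif1b. Of its coding words of 28 bases, about the length of a footprint, 97.8% occurred at most once in the genome, against 0.321% for Eif1. Words were taken from the spliced coding sequence, so words across exon junctions that the genome lacks count as unique. A word shared by the 2 genes has the same count for both, so the repeats of Eif1 words lie mostly outside Eif1b. Eif1 was far more abundant, at 498 to 636 CPM in RNA-seq, and its 8 libraries showed no such separation (609.5 and 569 CPM in untreated progenitors, 557 and 498 in untreated HFSCs, 536 and 636 in treated progenitors, 543 and 547 in treated HFSCs). Eif1b had 25 footprints in all, with 3 and 7 in untreated progenitors, 2 and 2 in untreated HFSCs, 5 and 0 in treated progenitors and 2 and 4 in treated HFSCs, too few to show at this depth a difference of the size seen in RNA.

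Eif6, which keeps the large ribosomal subunit from joining too early, had among the smallest p-values between cell types. Its RNA was 450.4 and 438 CPM in untreated progenitors, 397 and 381 in untreated HFSCs, 469.6 and 452 in treated progenitors and 352 and 421 CPM in treated HFSCs. Every HFSC library lay below every progenitor library, with a pooled log2 difference of -0.22 (SE 0.078, unadjusted p = 0.0194, adjusted p = 0.169). Eif1a, a copy of the eIF1A gene, had RNA at 81.3 and 78.7 CPM in untreated progenitors, 76.4 and 62.8 in untreated HFSCs, 93.5 and 100.1 in treated progenitors and 81.6 and 83.8 CPM in treated HFSCs. Its untreated libraries all lay below its treated ones, narrowly (log2 difference 0.26, SE 0.082, unadjusted p = 0.0111, adjusted p = 0.166), and its HFSC and progenitor libraries overlapped (-0.21, SE 0.082, adjusted p = 0.206). Eif5b, the GTPase of subunit joining, had an estimate of 0.23 (SE 0.095, adjusted p = 0.28) with the compound.

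Of the 6 genes grouped with eIF2 (Eif2s1, Eif2s2, Eif2s3x, Eif2s3y, Eif2a and Eif2d), 5 had lower RNA estimates in HFSCs and 5 higher estimates with N1-AcSpd, with medians of -0.11 and 0.03. Eif2s1 encodes the alpha subunit that the stress kinases phosphorylate. It had RNA at 159.6 and 155 CPM in untreated progenitors, 147 and 121 in untreated HFSCs, 182 and 182 in treated progenitors and 166 and 167 CPM in treated HFSCs. Eif2s2, the beta subunit, had 299 and 283 CPM in untreated progenitors, 271 and 219 in untreated HFSCs, 327 and 354 in treated progenitors and 319 and 323 CPM in treated HFSCs. For both genes the treated libraries all lay above the untreated ones, as the plot of 4 genes by library shows. The log2 differences with N1-AcSpd were 0.26 (SE 0.078, adjusted p = 0.152) for Eif2s1 and 0.31 (SE 0.085, adjusted p = 0.126) for Eif2s2, which DESeq2 called (adjusted p = 0.0361).

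**Figure D3:**
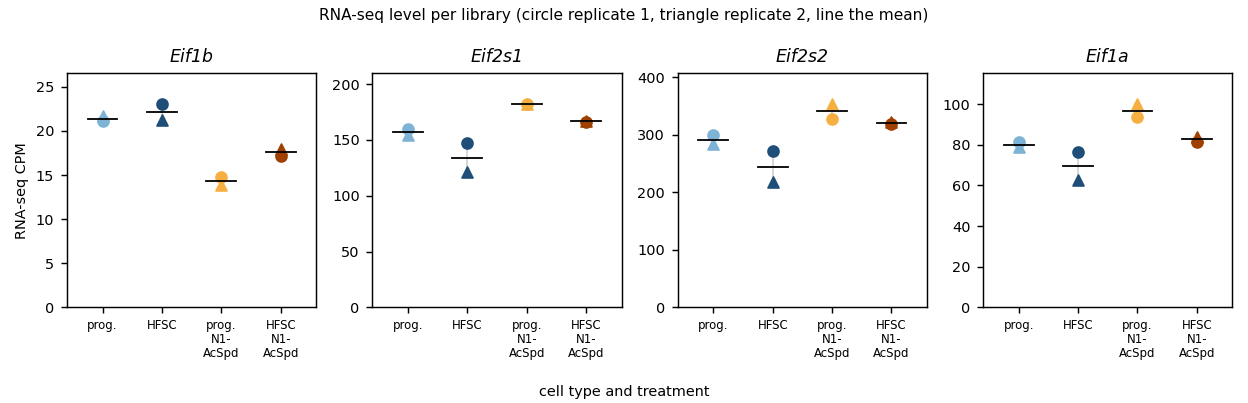
RNA-seq level (CPM) of Eif1b, Eif2s1, Eif2s2 and Eif1a in each library, by cell type (prog., progenitors) and treatment; circles are replicate 1, triangles replicate 2 and black lines the mean of the 2. For Eif1b the treated libraries (13.9 to 18.01 CPM) lie below the untreated ones (21.1 to 23.1 CPM), and for the other 3 genes the treated libraries lie above the untreated ones.

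The eIF2 gamma subunit has an X-linked and a Y-linked gene, and both were expressed in both donors. Their first 120 coding bases are shown because the pair behaves differently in Ribo-seq; over 1416 coding bases 194 differed (86.3% identical), and the 19 of them in this stretch are in capitals. Eif2s3x lies at chrX:94188707-94212709 on the minus strand and Eif2s3y at chrY:1010543-1028594 on the plus strand (GRCm38).
Eif2s3x: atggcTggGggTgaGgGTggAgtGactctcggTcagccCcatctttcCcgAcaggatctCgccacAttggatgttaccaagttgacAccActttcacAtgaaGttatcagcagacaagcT
Eif2s3y: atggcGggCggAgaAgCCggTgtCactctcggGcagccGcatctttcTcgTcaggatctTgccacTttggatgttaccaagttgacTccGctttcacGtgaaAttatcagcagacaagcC
Eif2s3x RNA was 102 and 89.9 CPM in untreated progenitors, 91.7 and 80.6 in untreated HFSCs, 103 and 96.7 in treated progenitors and 88.2 and 86.5 CPM in treated HFSCs. Eif2s3y RNA was 49.0 and 43.8, 48.4 and 39.3, 40.4 and 49.3, and 46.7 and 44.7 CPM in the same order. The cell types overlapped over both treatments for both genes, although in treated cells both HFSC libraries of Eif2s3x lay below both progenitor ones and its HFSC library was the lower one in 4 of 4 pairs. Pooled differences were of at most 0.18 in size on the log2 scale between cell types and 0.04 with the compound. Despite its higher RNA, Eif2s3x had 8 footprints over 8 libraries and Eif2s3y 59. Unique words made up 20.4% of the Eif2s3x coding sequence and 99.5% of that of Eif2s3y, so the repeats of Eif2s3x words lie mostly outside Eif2s3y.

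The eIF2B subunit genes, which encode the exchange factor that recharges eIF2, all had lower RNA estimates in HFSCs (5 of 5, median -0.12) and 4 of 5 had higher estimates with N1-AcSpd (median 0.13). Eif2b3 had the smallest p of all members between cell types. Its RNA was 27.2 and 30.8 CPM in untreated progenitors, 26.0 and 22.3 in untreated HFSCs, 31.7 and 33.1 in treated progenitors and 28.04 and 26.0 CPM in treated HFSCs. Within each treatment both HFSC libraries lay below both progenitor libraries, although 1 treated HFSC library reached above an untreated progenitor one, and the pooled difference of -0.26 (SE 0.089, unadjusted p = 0.0165 in edgeR) did not pass adjustment (adjusted p = 0.155). Eif2b4 had an estimate of 0.23 (SE 0.090, adjusted p = 0.256) with the compound. The 4 eIF2 kinase genes (Eif2ak1 or HRI, Eif2ak2 or PKR, Eif2ak3 or PERK, Eif2ak4 or GCN2) had 2 estimates on each side of 0 between cell types, with a median of 0.00, and 3 of 4 had lower estimates with N1-AcSpd (median -0.09).

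The 14 eIF3 genes (Eif3a to Eif3m, with 2 copies of Eif3j) encode the scaffold that gathers the other factors on the small subunit. In RNA-seq 13 of 14 had lower estimates in HFSCs (median -0.08), and 7 of 14 higher estimates with N1-AcSpd (median 0.01). Eif3b had the lowest p of the complex in both comparisons, with -0.17 (SE 0.067, adjusted p = 0.22) between cell types and 0.19 (SE 0.067, adjusted p = 0.205) with the compound. Eif3j2 had the highest estimates of the complex (0.22 and 0.49) on RNA levels of 0.413 to 0.996 CPM.

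The 14 genes of eIF4F and its partners were Eif4a1, Eif4a2 and Eif4a3, Eif4b, Eif4e, Eif4e2 and Eif4e3, Eif4enif1, Eif4g1, Eif4g2 and Eif4g3, Eif4h, Pabpc1 and Pabpc4. Of these, 12 had lower RNA estimates in HFSCs (median -0.09) and 8 higher estimates with N1-AcSpd (median 0.05). Eif4g1, the main scaffold, had 773 and 684 CPM in untreated progenitors, 686 and 585 in untreated HFSCs, 860.1 and 787 in treated progenitors and 717 and 718 CPM in treated HFSCs. Its lowest level was in untreated HFSCs and its highest in treated progenitors, and its groups overlapped across treatments (-0.20 between cell types, SE 0.083, adjusted p = 0.256). Eif4e, the cap-binding protein gene, had 88.2 and 80.1 CPM in untreated progenitors, 83.4 and 71.0 in untreated HFSCs, 95.2 and 87.2 in treated progenitors and 82.4 and 91.9 CPM in treated HFSCs, again overlapping (-0.09, SE 0.085, adjusted p = 0.61).

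The 3 inhibitors of eIF4E had no difference past the test, with Eif4ebp1 lower in HFSCs and Eif4ebp2 higher with N1-AcSpd in 4 of 4 donor pairs. Eif4ebp1 RNA was 189 and 204 CPM in untreated progenitors, 184 and 178 in untreated HFSCs, 200.4 and 234 in treated progenitors and 176 and 203 CPM in treated HFSCs (-0.16 between cell types, SE 0.083, adjusted p = 0.359). Eif4ebp2 lay between 43.4 and 48.2 CPM and Eif4ebp3 between 5.94 and 7.84 CPM over the 8 libraries, overlapping in both comparisons. Eif4ebp1 also carried most of the footprints of the 3, with 292 against 4 for Eif4ebp2 and 4 for Eif4ebp3. Their transcripts differ in length: Eif4ebp2 has 360 coding bases in a transcript of 5784 bases, and per length it had 7.82 CPM per kb of RNA and 10.3 footprint CPM per coding kb, while Eif4ebp1 had 98.1 and 955.

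The eEF1 genes (Eef1a1, the delivery factor, its exchange subunits Eef1b2, Eef1d and Eef1g, and Eef1e1, a part of the multi-synthetase complex) all had slightly lower RNA estimates in HFSCs (5 of 5, median -0.15) and were split with N1-AcSpd (2 of 5 higher). Eef1a1 RNA was 12899 and 12832 CPM in untreated progenitors, 12492 and 12320.0 in untreated HFSCs, 10415 and 13448 in treated progenitors and 11817 and 11360.0 CPM in treated HFSCs. The donors in treated progenitors lay farther apart than any group means, and neither comparison was past the spread (-0.05, SE 0.096, and -0.10, SE 0.096). Eef2, the translocation factor, had 5028 and 5204 CPM in untreated progenitors, 4966 and 5402 in untreated HFSCs, 4124 and 5213 in treated progenitors and 5003 and 4349 CPM in treated HFSCs, overlapping in the same way (0.01 between cell types, SE 0.099). The gene of the kinase that inhibits eEF2, Eef2k, had differences of -0.07 and 0.06. Of the 5 methyltransferase genes (Eef1akmt1 to Eef1akmt4, which act on eEF1A, and Eef2kmt, which acts on eEF2), all had higher estimates with N1-AcSpd, the smallest p being that of Eef1akmt4 (0.34, SE 0.11, adjusted p = 0.179).

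In Ribo-seq, 58 of the 66 genes had a mean of at least 1 footprint per library and were tested among 8431 genes (Eif1, Eif4a1, Pabpc4, Eif3j2 and Eef1akmt3 had 0 footprints in all, Eif3j1 3, Eif4ebp2 4 and Eif4ebp3 4), and 0 passed an adjusted p of 0.05 in any comparison by edgeR or by DESeq2. Of all genes, 0.0237% passed adjustment between untreated cell types, 0.0237% between treated ones, 0.0237% for N1-AcSpd in progenitors, 0% in HFSCs, 0.178% between cell types over both treatments, 0.083% for N1-AcSpd over both cell types and 0% for the interaction. At an unadjusted p of 0.05, 3 of 58 members passed between untreated cell types (2.66% of all genes), 2 between treated ones (3.44%), 3 for N1-AcSpd in progenitors (2.82%) and 4 in HFSCs (3.53%). Over both treatments 4 members passed between cell types (4.21% of all genes), all lower in HFSCs (2.02% were lower), and over both cell types 5 passed with N1-AcSpd (4.84%). For the interaction it was 1 member (2.69%). DESeq2 gave no adjusted p to 36 members between cell types. As in RNA-seq, estimates leaned to one side: 41 of 58 were lower in HFSCs, where 49.3% of all genes were (medians -0.18 and 0.01), and 37 were higher with N1-AcSpd, where 47.4% of all genes were (medians 0.12 and -0.04). The members' summed share of footprints was lowest in untreated HFSCs, at 1.39% and 1.31%, against 1.90% and 1.504% in untreated progenitors, 1.86% and 1.68% in treated progenitors and 1.60% and 1.53% in treated HFSCs. By complex, all 6 genes grouped with eIF2 and all 5 eIF2B genes had lower estimates in HFSCs (medians -0.56 and -0.65). These rest on 8 to 102 and 43 to 123 footprints per gene. Lower estimates were also those of 9 of 12 eIF3 genes tested (median -0.17), while 3 of 4 kinase genes had higher ones on 23 to 32 footprints each.

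The 6 genes with most footprints were Eef2, Eif4h, Eif3a, Eef1a1, Eif3c and Eef1b2. Eef2, with 1072 footprints, had 1418 and 1075 footprint CPM in untreated progenitors, 1216 and 1223 in untreated HFSCs, 1664 and 1683 in treated progenitors and 1463 and 1248 in treated HFSCs. Within each cell type its treated libraries lay above its untreated ones. Eef1a1, with 861, had 1418 and 919 in untreated progenitors, 863 and 675 in untreated HFSCs, 1553 and 1291 in treated progenitors and 1234 and 965 footprint CPM in treated HFSCs. Its treated HFSCs lay above the untreated ones, whereas in progenitors the treated groups overlapped with the untreated. Eef1b2, with 635, had 796 and 746 in untreated progenitors, 493 and 524 in untreated HFSCs, 998 and 1160.0 in treated progenitors and 859.7 and 782 footprint CPM in treated HFSCs. Both of its treated libraries lay above both untreated ones in each cell type, and HFSCs lay below progenitors in each treatment. The pooled Ribo-seq differences with N1-AcSpd were 0.30 (SE 0.26) for Eef2, 0.43 (SE 0.27) for Eef1a1 and 0.59 (SE 0.28) for Eef1b2, of which only Eef1b2 was past an unadjusted p of 0.05 (0.0377, adjusted p = 1.00).

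Eif4h, the RNA-binding cofactor of eIF4A, had 903 footprints, at 572 and 1039 footprint CPM in untreated progenitors, 1127 and 929 in untreated HFSCs, 1368 and 1127 in treated progenitors and 1373 and 1032 in treated HFSCs. Eif3a, the largest eIF3 subunit, had 796 and 1111 in untreated progenitors, 846 and 874 in untreated HFSCs, 1356 and 1078 in treated progenitors and 1179 and 1032 footprint CPM in treated HFSCs. Eif3c had 946 and 1268 in untreated progenitors, 810.4 and 889.8 in untreated HFSCs, 1195 and 1062 in treated progenitors and 929 and 749 footprint CPM in treated HFSCs. For Eif3c every HFSC library lay below every progenitor library (pooled difference -0.41, SE 0.27, unadjusted p = 0.132), whereas for Eif4h and Eif3a the cell types overlapped. No pooled difference of the 3 genes passed an unadjusted p of 0.05. The plot of footprints by library shows these genes together with Eif4g1 and Pabpc1.

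**Figure D4:**
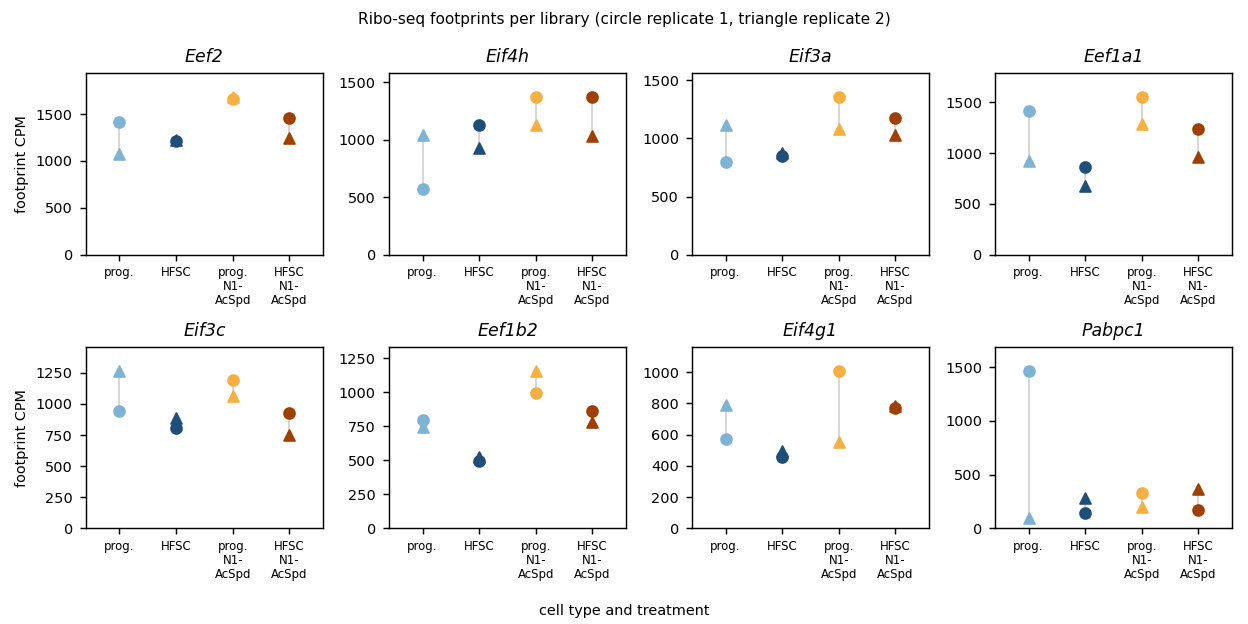
Footprint level (TMM-scaled CPM) in each Ribo-seq library for the 6 members with most footprints and for Eif4g1 and Pabpc1, by cell type (prog., progenitors) and treatment; circles are replicate 1 and triangles replicate 2, joined by a line. Eef1b2 shows replicates close together and treated libraries above untreated ones in each cell type, and for Pabpc1 the untreated progenitor replicate 1, at 1468 CPM, stands far above the other 7 libraries.

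Pabpc1, the main cytoplasmic poly(A)-binding protein gene, had the smallest p between cell types in Ribo-seq, and a single library decided it. It had 1468 and 96.3 footprint CPM in untreated progenitors, 141 and 286 in untreated HFSCs, 333 and 196 in treated progenitors and 173 and 366 in treated HFSCs, and the first value came from 59 footprints in the shallowest library. The pooled difference was -0.83 (SE 0.35, unadjusted p = 0.0177, adjusted p = 0.957). Without that library it was 0.59 (adjusted p = 1), and without the other untreated progenitor library it was -1.39 and called (adjusted p = 0.0149), and with the donor as a block it was -0.58 (unadjusted p = 0.109). In RNA-seq the same library did not stand apart, at 2755 CPM among 2128 to 2900.3 CPM over the 8.

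Of the other members with the smallest p-values in Ribo-seq, Eef1d had 373 footprints and Eif2b1 101, and Eif2s2, Eif2d and Eif4e had 73, 34 and 25. Eif2s2 had 6 and 31 footprints in untreated progenitors, 1 and 4 in untreated HFSCs, 4 and 10 in treated progenitors and 11 and 6 in treated HFSCs, or 149 and 124, 17.6 and 31.8, 49.3 and 163, and 76.3 and 99.8 footprint CPM. Untreated HFSCs lay lowest, and the pooled difference between cell types was -1.26 (SE 0.60, unadjusted p = 0.0363). Eef1d had 224 and 518 footprint CPM in untreated progenitors, 388 and 302 in untreated HFSCs, 850.3 and 605 in treated progenitors and 298 and 433 in treated HFSCs (-0.64, SE 0.32, unadjusted p = 0.0417). Its cell types were separate in treated cells and overlapped in untreated ones. Eif2b1, with 1 and 23, 0 and 15, 12 and 15, and 27 and 8 footprints in the same order of groups, had an estimate of 1.26 with N1-AcSpd (SE 0.48, unadjusted p = 0.00846). Eif2d, an initiation factor that can place the initiator tRNA without eIF2, had 6 and 13, 5 and 3, 6 and 0, and 0 and 1 footprints, with an estimate of -2.01 (SE 0.90, unadjusted p = 0.0252). For Eif4e the counts were 2 and 5, 0 and 0, 3 and 4, and 10 and 1; 0 counts allow shares of 0.00573% and 0.00225% in the untreated HFSC libraries, and no fold is given against that group (unadjusted p = 0.0121 for the compound over both cell types).

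The ratio of footprints to RNA, the usual measure of translational efficiency, was tested as the interaction of assay and group at the unadjusted p of 0.05 that the study used. Here 2 of 58 members passed between untreated cell types (5.24% of all genes), 3 of 59 between treated ones (6.24%), 2 of 58 for N1-AcSpd in progenitors (6.1%) and 7 of 58 in HFSCs (6.87%). Over both treatments 6 of 58 passed between cell types (6.12%), and over both cell types 10 of 58 with N1-AcSpd (7.39%). After adjustment edgeR called 0 of these and DESeq2 called 1, Eef1b2, with no adjusted p for 37 members in that comparison. Estimates were lower in HFSCs for 38 of 58 members (49% of all genes) and higher with N1-AcSpd for 32 (46% of all genes).

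The ratio of Eef1b2 was close between replicates in every group. Its log2 ratio of footprint CPM to RNA CPM was -0.39 and -0.45 in untreated progenitors, -0.91 and -0.94 in untreated HFSCs, 0.17 and 0.14 in treated progenitors and -0.04 and -0.14 in treated HFSCs. All treated libraries lay above all untreated ones, on RNA levels of 1042 and 1019, 927 and 1009, 885 and 1052, and 885 and 859.8 CPM. The ratio was 0.70 higher with N1-AcSpd (SE 0.21, unadjusted p = 0.00304, adjusted p = 0.458 by edgeR). DESeq2 gave an adjusted p of 0.0117, while limma-voom with a weight per sample gave an unadjusted p of 0.135. Between cell types the ratio of Eef1b2 differed by -0.37 (SE 0.21, unadjusted p = 0.091).

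Other members past the ratio threshold with N1-AcSpd were Eef1a1 (0.56, SE 0.24), Eef2 (0.45, SE 0.22), Eif3h (0.72, SE 0.32) and Eif2b1 (1.01, SE 0.43), all higher, and Eef2k (-1.25, SE 0.51), Eif2ak3 (-1.86, SE 0.75), Eif2d (-1.93, SE 0.90) and Eif3m (-1.13, SE 0.43), all lower, with adjusted p of 0.594 to 0.676. The Eef2k value rests on single libraries, since it ran from -7.44 to 5.53 when each library was left out in turn (without treated HFSC replicate 1 and without untreated progenitor replicate 2). With the donor as a block Eef2k (unadjusted p = 0.055, edgeR) and Eif2ak3 (unadjusted p = 0.0664) missed it. Eif4e also passed (unadjusted p = 0.00283), with its 0 counts in untreated HFSCs. Eif3m, an eIF3 subunit gene, had log2 ratios of -2.11 and -0.78 in untreated progenitors, -1.25 and -1.21 in untreated HFSCs, -2.54 and -1.81 in treated progenitors and -1.82 and -3.70 in treated HFSCs, so its progenitor groups overlapped and its HFSC groups did not. Between cell types Eif2s2 (-1.09, SE 0.46) and Eef1d (-0.61, SE 0.27) had lower ratios in HFSCs and Eif2ak2 (2.08, SE 0.84) a higher one, the last on 23 footprints with 0 in both replicate 1 libraries of progenitors. These 3 had adjusted p of 0.793 to 0.8.

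Of the 6 members whose ratio was past the threshold and higher with N1-AcSpd, 4 belong to the TOP mRNAs, a class of mRNAs that begin with a run of pyrimidines and whose translation responds to mTOR signalling. Of the 10 TOP members listed (Eef1a1, Eef1b2, Eef1d, Eef1g, Eef2, Eif3e, Eif3f, Eif3h, Eif4b and Pabpc1), 8 had higher ratio estimates with N1-AcSpd and 4 passed the unadjusted threshold, Eef1a1, Eef1b2, Eef2 and Eif3h, where 2.82% of all genes passed it and were higher. Their median was 0.29, against 0.06 for all members and -0.06 for all genes. The list was drawn up with earlier results of these data known, so its direction is not independent evidence. The exceptions were Eef1g (-0.48) and Pabpc1 (-0.50). In RNA-seq 8 of the same 10 had lower estimates with the compound (median -0.06, 0 past the unadjusted threshold), and between cell types 7 of 10 ratio estimates were lower in HFSCs (median -0.15). With limma-voom the unadjusted p was 0.251 for Eif3h, 0.257 for Eef1a1 and 0.378 for Eef2, and with the donor as a block Eif3h also missed the threshold (unadjusted p = 0.0848).

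To show pyrimidine runs near the starts of such genes, the longest run of C and T within 50 bases of the annotated start is printed for 4 TOP members with a promoter entry in RefSeq (GRCm38.p6), as 30 bases on the transcribed strand with the run in capitals.
Eef1a1: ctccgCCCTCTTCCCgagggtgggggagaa
Eef1b2: tgcgtccgagcgCTTTCgttcaactccggc
Eif3f: ctaggCTCTCTCTCTTTCTCggcaagatgg
Eif4b: ctccaCCCCTTCggccacatgtcgcgcagg
These windows lie at chr9:78481705-78481734 (minus strand), chr1:63176851-63176880, chr7:108934406-108934435 and chr15:102073730-102073759 (plus strand). The runs were 10, 5, 15 and 7 bases long and began at -5, 33, -4 and -38 from the annotated start, so the windows of Eef1b2 and Eif4b do not hold the start itself. Runs of at least 8 bases were held by 46.0% of the 50 members with an entry and by 39.3% of 27025 genes. Of the 4 shown, Eef1b2 had the shortest run in this window.

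Across genes, the level of the ratio itself went along with how much of a coding sequence is unique in the genome. The 3 highest log2 ratios among the 35 members with at least 80 footprints were those of Eif4h (2.64), Eef1akmt1 (2.15) and Eif2b2 (1.58), and the 3 lowest those of Eef1a1 (-3.45), Pabpc1 (-2.71) and Eef2 (-1.84). Unique words made up 99.3%, 100% and 100% of the first 3 coding sequences and 10.4%, 54.2% and 71.5% of the last 3. Single members departed from this: Eif4g2 (-1.51) and Eif3f (-0.92) had low ratios with 100% unique words, and Eif4a3 had 0.25 with 48.5%. Members with at least 80 footprints had a median log2 ratio of 0.25, against 0.73 for 2259 genes at that depth. The ratio also depends on how long the untranslated parts are, and per length Eif4h had 63.0 CPM per kb of RNA and 1439.6 footprint CPM per coding kb, while Eef1a1 had 6799 and 804. In Eef1akmt1 the footprint CPM were 74.7 and 144 in untreated progenitors, 70.5 and 103 in untreated HFSCs, 136 and 245 in treated progenitors and 83.2 and 66.6 in treated HFSCs. In Eif2b2 they were 99.5 and 161, 123 and 151, 209.5 and 245, and 139 and 16.6 in the same order.

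Among the 66 genes 13 had under 50% unique words, and 4 of these (30.8%) had 0 footprints in all 8 libraries, where 31.7% of all genes in that class had none. They were Eif1, Eif4a1, Pabpc4 and Eif3j2. Of the other 53 members 1 (1.89%) had none, Eef1akmt3, against 8.70% of all genes in that class. The genes without footprints include abundant mRNAs: Eif4a1 RNA was 1141 and 1028 CPM in untreated progenitors, 1062 and 883 in untreated HFSCs, 1204 and 1178 in treated progenitors and 1049.8 and 1187 CPM in treated HFSCs. The median log2 ratio was -1.75 for the 9 members under 50% unique that had a footprint and -0.09 for the 52 others, beside -1.78 and 0.15 for all genes in these classes. How reads with several matches were counted is not given in the sources used here, and its part in these ratios was not tested. Comparisons of 1 gene between groups carry the same unique share on both sides. The part of reads with several matches in those comparisons was not tested either.

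**Figure D5:**
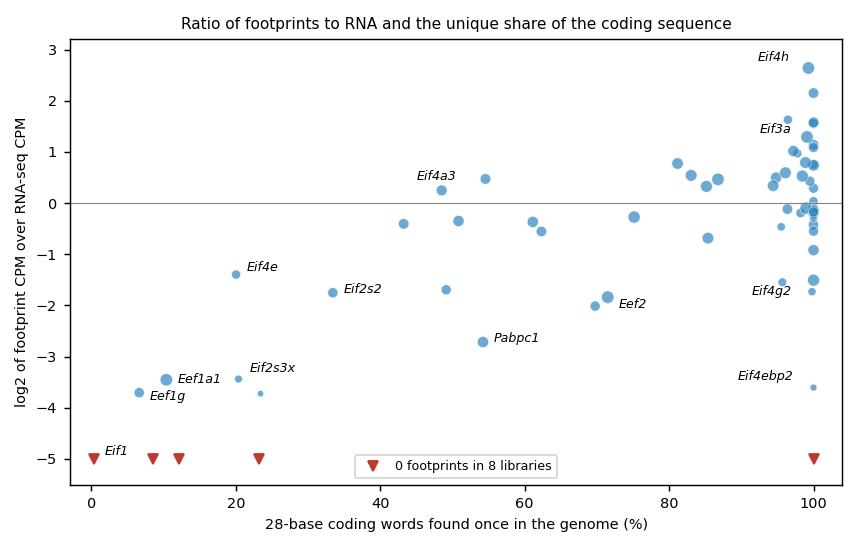
Log2 ratio of footprint CPM to RNA-seq CPM over all 8 libraries of each assay, for the 66 factor genes. The horizontal axis is the percentage of 28-base coding words found at most once in the genome. Point size grows with the number of footprints, and red triangles at the bottom are genes with 0 footprints. The 4 triangles on the left (Eif1, Eif4a1, Pabpc4 and Eif3j2) lie under 50%, where ratios had a median of -1.75.

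Other genes of the translation pathway were read in the same way. Of 21 regulators (mTOR complex and S6 kinase genes, eIF4E kinases, poly(A)-binding protein partners, helicases and eIF2 phosphatase subunits), 0 passed adjustment in RNA-seq by edgeR. At an unadjusted p of 0.05, 1 was lower between cell types (18.1% of all genes passed), and 2 were higher and 1 lower with N1-AcSpd (15.6% of all genes passed). The smallest p-values were those of Nck1 (-0.29, SE 0.12, adjusted p = 0.243) and Denr (-0.16, SE 0.071) lower in HFSCs, Denr (0.24, SE 0.071, adjusted p = 0.148) and Larp1 (0.24, SE 0.082), a repressor of TOP mRNAs, higher with the compound, and Paip1 (-0.17, SE 0.074) and Paip2 (-0.12, SE 0.067) lower. Of 6 termination and recycling genes (Etf1, Gspt1, Gspt2, Abce1, Pelo and Hbs1l), 5 had lower estimates in HFSCs and 5 higher estimates with N1-AcSpd, with 0 past adjustment by edgeR and 3 and 1 unadjusted, beside the 18.1% and 15.6% of all genes. Of the 3 between cell types, Gspt2, a release factor gene, was higher in HFSCs (0.92, SE 0.30, adjusted p = 0.15 by edgeR). Its mean RNA level was only 0.902 CPM, and it had 0 footprints. The recycling factor gene Abce1 was in both (-0.21, SE 0.078, adjusted p = 0.198, and 0.19, SE 0.078, adjusted p = 0.292). In Ribo-seq the regulator with the smallest p was Paip1, a poly(A)-binding protein partner, for N1-AcSpd (-3.03, SE 1.2, unadjusted p = 0.00858), on 41 footprints over 8 libraries.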

How the data were processed

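Sorted cells of 4 groups (progenitors and HFSCs, untreated or given N1-AcSpd) from 2 donor mice were profiled by RNA-seq after rRNA depletion and by Ribo-seq, from which gel-cut RNase-protected fragments were sequenced without molecular identifiers. Before deposit the authors used flexbar for adapter trimming, Bowtie (1.2.3 in the submitters' processing notes) to take out rRNA and tRNA, and STAR 2.7.3a for alignment to mm10 (GRCm38.p5). The values the authors deposited are unscaled read counts per transcript. The authors' notes also name featureCounts; the counted region and the treatment of reads with several matches are not given in the sources used here. Tables of the authors' own Riborex comparisons (fold changes and p-values) were not used beyond their pairing of transcripts with gene names.

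For each gene the transcript with most footprints over 8 libraries was kept (22579 genes, 33 duplicated symbols left out). Testing required a mean count of 1 or more and was done with edgeR 4.0.16 (R 4.3.3, TMM factors, quasi-likelihood F test, 4 groups in a fit per assay), with Benjamini-Hochberg adjustment over all genes at 0.05. The ratio was the interaction of assay and group, at an unadjusted p of 0.05. Alternatives were DESeq2 1.42.0, limma 3.58.1 (voom), RLE factors, other count minimums, all transcripts summed, the donor as a block, and each library left out. Unadjusted and adjusted p-values are two-sided. The edgeR tests of RNA-seq, Ribo-seq and the ratio were checked on simulated data, for the cell type comparison over both treatments only. In the simulated data known changes were planted in footprints and none in RNA. The other comparisons and the alternatives were not checked in this way.

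The library titles give a replicate number and no donor. The paper names 2 donors as its 2 biological replicates, so the replicate numbers were taken to pair the samples. In Ribo-seq the difference between replicates correlated between groups at only 0.0236 to 0.113. In RNA-seq the donor difference correlated between groups at 0.352 to 0.591 in 3 groups and at -0.572 to -0.396 with treated HFSCs, so the RNA-seq numbers of that group may be exchanged; this was not settled.

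Values per library were named for members past adjustment, for the 3 smallest p per assay and pooled comparison, for the 6 with most footprints, for the 3 highest and 3 lowest ratios at 80 footprints or more, and for a short list (4E-BP, Eif2s1, Eif2s3x, Eif2s3y, Eef1a1, Eef2, Eif4e, Eif4g1). Eif1, Eif4a1 and the other genes given with values were added for what they show. The members, the lists and the tests were chosen with earlier results of these data known. With 1 library per donor, group and assay, the p-values rest on the spread between replicate libraries. That spread holds counting error and differences between donors and between libraries, of which the last 2 cannot be told apart. The start sequence of 1 further TOP member is not reported here.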

Additional observations from a re-analysis of the deposited data

How the results depend on the processing

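Between cell types and with N1-AcSpd, the RNA-seq and Ribo-seq calls above rest on adjusted p-values. At an unadjusted p of 0.05 the RNA-seq counts were 2 between treated cell types, 3 for N1-AcSpd in progenitors, 3 in HFSCs, 6 between cell types over both treatments and 8 for N1-AcSpd over both cell types. For Ribo-seq they were 3, 2, 3, 4, 4 and 5, in the order of the report, with 1 for the interaction. The count of 1 for N1-AcSpd over both cell types in RNA-seq became 2 with DESeq2, 0 with the replicate block, 0 with transcripts summed and 0 without any of the 8 libraries. In Ribo-seq, leaving out a library gave 0 to 1 called members between untreated cell types, between cell types over both treatments and for N1-AcSpd in progenitors, the 1 being Pabpc1 without untreated progenitor replicate 2. Without untreated progenitor replicate 1 its difference between cell types over both treatments turned to 0.59, within a range of -1.39 to 0.59 over the libraries left out. With a mean of at least 10 counts, 23 members tested in Ribo-seq had a higher estimate with N1-AcSpd, since fewer genes were tested.

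With adjusted p-values the ratio gave 0 members in each of the 6 comparisons. For the ratio, without a library means without the RNA-seq and the Ribo-seq library of that replicate together. Between untreated cell types the count of 2 became 1 with a mean of 10 counts, 5 with transcripts summed, 1 with limma-voom and 1 to 6 without a library (6 without untreated progenitor replicate 2). Between treated cell types the count of 3 became 5 with DESeq2, 1 with a mean of 10 counts, 1 with limma-voom and 2 to 6 without a library (6 without treated HFSC replicate 1). For N1-AcSpd in progenitors the count of 2 became 5 with DESeq2, 1 with no minimum, 1 with all 16 libraries in a fit, 1 with limma-voom and 1 to 5 without a library (5 without treated progenitor replicate 1). For N1-AcSpd in HFSCs the count of 7 became 2 with a mean of 10 counts, 3 with limma-voom and 2 to 7 without a library (2 without untreated HFSC replicate 2). Over both treatments the 6 between cell types became 3 with limma-voom and 4 to 10 without a library (10 without untreated progenitor replicate 2). Over both cell types the 10 with N1-AcSpd became 4 with a mean of 10 counts, 4 with limma-voom and 6 to 8 without a library. The N1-AcSpd difference in the ratio of Eef2k over both cell types ran from -7.44 (without treated HFSC replicate 1) to 5.53 (without untreated progenitor replicate 2, a reversal). In the main ratio fits 5.24% to 7.39% of all genes passed the unadjusted p of 0.05. The shares of all genes under the alternatives are not given here, so these counts are not read as results about the members. The causes of these shifts were not tested.

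A crossed replicate block exchanges the donors of both RNA-seq libraries from treated HFSCs and was chosen after seeing the data. In RNA-seq it called 4 members with N1-AcSpd over both cell types, 1 between cell types over both treatments and 1 with N1-AcSpd in progenitors. Of all 14205 genes it called 1260, 1948 and 446 in these comparisons, against 233, 556 and 34 without a block. For the ratio it gave 5 members between treated cell types at an unadjusted p of 0.05, and the share of all genes in that fit is not given here. Depth limits the Ribo-seq and ratio results, in which 35 of 66 members had at least 80 footprints over 8 libraries.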
